A study of Mus musculus with 6 samples.

Results

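The mitochondrial respiratory chain and ATP synthase genes were taken as all non-control probes whose gene name begins with Nduf, Uqcr, Sdha to Sdhd, Cox4 to Cox8 or Atp5. That gave 82 genes on 113 probes out of 27962 genes on the array, each read from its brightest sample-channel probe. Of these, 81 were well above background on all 6 arrays and were tested. Cox8c, the remaining gene, was not well above background on enough arrays to be tested. The list follows gene names, so it also holds Cox4nb, a neighbour of Cox4i1 now named Emc8 that encodes a subunit of an endoplasmic reticulum complex, Atp5s, now named Dmac2l, and the complex I assembly factor Ndufaf1.

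RNA from the mammary glands of virgin C57/B6 mice was measured on 6 Agilent 2-colour arrays, 1 for each of 6 groups: het P4, WT P4, het P5, WT P5, het MEC and WT MEC. P4 is the sorted CD24+CD29hi fraction, labelled MaSC (mammary stem cell). P5 is the sorted CD24+CD29lo fraction, labelled luminal progenitor, and MEC is total mammary epithelial cells with no such sort. WT arrays came from wild-type mice, and het stands for arrays labelled as heterozygous for a knockout of ΔNp63, p63 isoforms made without the N-terminal transactivation domain. Every sample was labelled with Cy5 and hybridised beside Cy3-labelled RNA pooled from 11 mouse cell lines (the Universal Mouse Reference), with no dye swap. How many mice went into an array is not stated, so the spread below may be technical in part.

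The respiratory chain hands electrons from NADH and succinate to oxygen through membrane complexes and pumps protons out of the matrix, and ATP synthase uses the return flow to make ATP. Complex I (Nduf genes) takes electrons from NADH, complex II (Sdh) from succinate, complex III (Uqcr) passes them to cytochrome c, and complex IV (Cox) passes them to oxygen. The genes here are the nuclear ones; most subunits are needed by every cell, while some complex IV subunits have tissue-specific isoforms.

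Values are log2 of sample over reference at the same probe. They compare arrays and not genes, and in bulk RNA fewer cells of a type and less RNA per cell cannot be told apart. The 4 sorted samples shared slide 1 and both MEC samples shared slide 2, so P4 or P5 against MEC and slide cannot be told apart. Het and WT arrays also sat at different positions on each slide, and so did P4 and P5 arrays on slide 1. P4 was at positions 3 (het) and 1 (WT), and P5 at 4 (het) and 2 (WT). Position and P4 against P5 therefore cannot be told apart. In the sample channel 74.3% to 89.8% of non-control spots passed the scanner's background criterion, and median signals were 3.24 to 5.22 times local background. The share was 83.4% (het) and 74.3% (WT) in P4, 82.7% (het) and 86.0% (WT) in P5 and 89.8% (het) and 88.4% (WT) in MEC. Median signals in the same order were 3.24, 3.40, 3.29, 4.52, 4.94 and 5.22 times background. The WT P4 array held the highest local backgrounds, up to 4501.5 (Cy5) and 30168 (Cy3). The part of array quality in the P4 values was not tested. The number of arrays limits the precision. Basal markers such as Krt5, Krt14 and Acta2 were higher in P4 than in P5 for 11 of 11 genes (median difference 4.18). All 13 luminal markers tested, such as Krt8, Elf5 and Kit, were lower (median -3.66). Of these, 12 passed an adjusted p under 0.05 (limma), against 5.57% of all genes called lower. Trp63, the targeted gene, was at 5.29 (het) and 4.41 (WT) in P4, against 0.89 (het) and 0.46 (WT) in P5 and 2.65 (het) and 2.78 (WT) in MEC. On its brightest probe the arrays labelled het were therefore not lower than WT in P4 or P5, and where that probe lies relative to the deleted stretch is not given in the sources used here, so the genotype labels were not checked by it.

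Most respiratory chain genes lay lower in P4 than in P5. The median of the 81 tested genes was -0.51 on the het P4 array and -0.71 on the WT P4 array, against -0.22 (het) and -0.33 (WT) in P5 and -0.19 (het) and -0.30 (WT) in MEC. The median over all genes lay between 0.01 and 0.09 on the 6 arrays. The P4 arrays thus stood lowest in both genotypes, and the P5 and MEC arrays did not separate.

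**Figure D1:**
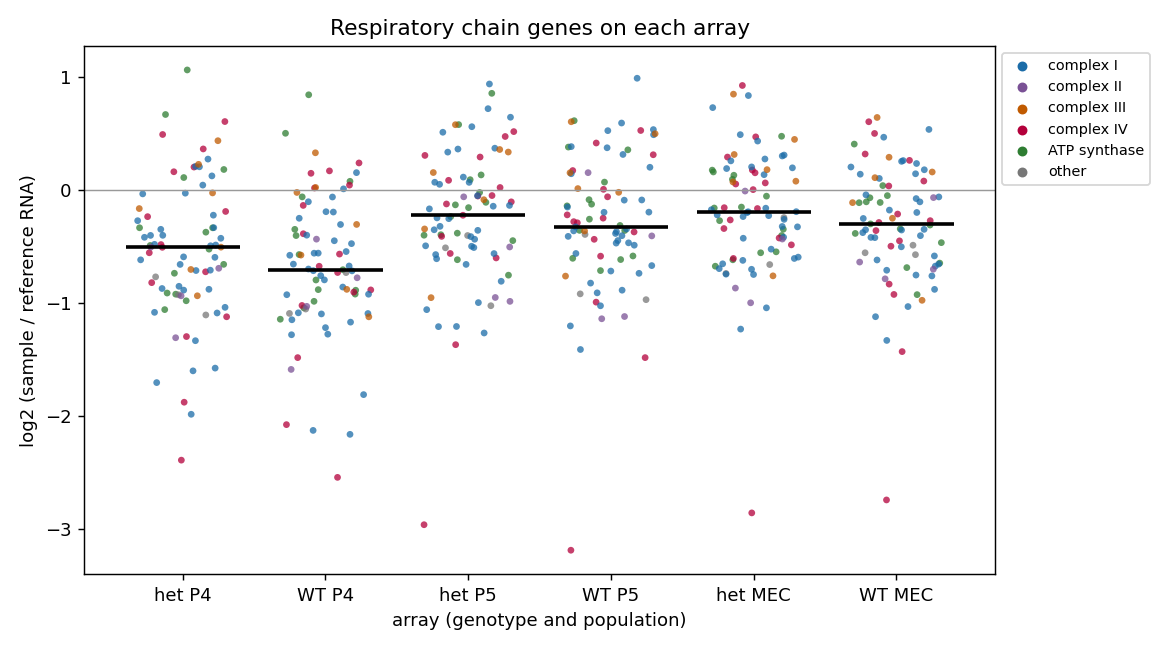
Log2 of sample over reference RNA (vertical axis) for the 81 tested genes on each of the 6 arrays (horizontal axis), coloured by complex, with a black line at the median of the 81. The medians on both P4 arrays, -0.51 and -0.71, lie below those on the other 4 arrays, which run from -0.33 to -0.19.

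Between P4 and P5 the median difference over the 81 genes was -0.38, and 70 of 81 genes were below 0. Over all 25062 genes tested the median was 0.040, and 57.1% of genes were above 0. In 61 of 81 genes both P4 arrays were lower than both P5 arrays, which held for 22.4% of all genes. In 7 of 81 genes both P4 arrays were higher, against 23.7% of all genes. Within het mice the median P4 minus P5 difference was -0.31 and within WT mice -0.40. Among the 1020 tested genes whose Cy5 signal was at least that of the middle respiratory chain gene, which include 41 of the 81, the median difference was -0.11 and both P4 arrays were lower than both P5 arrays in 43%. The part that signal level plays in the lower P4 values was not tested further.

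At an adjusted p under 0.05 (limma, Benjamini-Hochberg over all genes tested), 7 of the 81 genes were lower in P4 than in P5 and 0 were higher. Over all genes, 10.6% passed in either direction, 5.57% lower and 5.05% higher, so the share of respiratory chain genes called lower was close to the background. Of the 1020 bright genes, 57.6% lay below 0, and by the same test 113 were lower (11.1%) and 129 higher. At an unadjusted p under 0.05, 43 of 81 genes passed, against 26.7% of all genes. No member was called without any 1 of the 4 sorted arrays (het P4, WT P4, het P5 or WT P5), and neither was any other gene. Without either MEC array, het or WT, 18 members were called (22.2%), 17 lower and 1 higher, while calls over all genes went up to 18.8%, 9.55% lower and 9.24% higher.

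By complex, the median P4 minus P5 difference was -0.41 over 36 complex I genes (6 lower by the test), -0.35 over 4 complex II genes (0 called), -0.19 over 7 complex III genes (1 lower), -0.31 over 16 complex IV genes (0 called) and -0.36 over 15 ATP synthase genes (0 called). Only complex I and complex III held called members, and no test was made of whether complexes differed. Genes were placed by name, so Ndufa4, since assigned to complex IV, counts among the complex I genes here and below. The 7 core complex I subunits, which carry the flavin and iron-sulphur centres, had a median of -0.23, all 7 below 0. The 29 other complex I genes had a median of -0.45, with 27 below 0. This split was made after the values were seen.

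**Figure D2:**
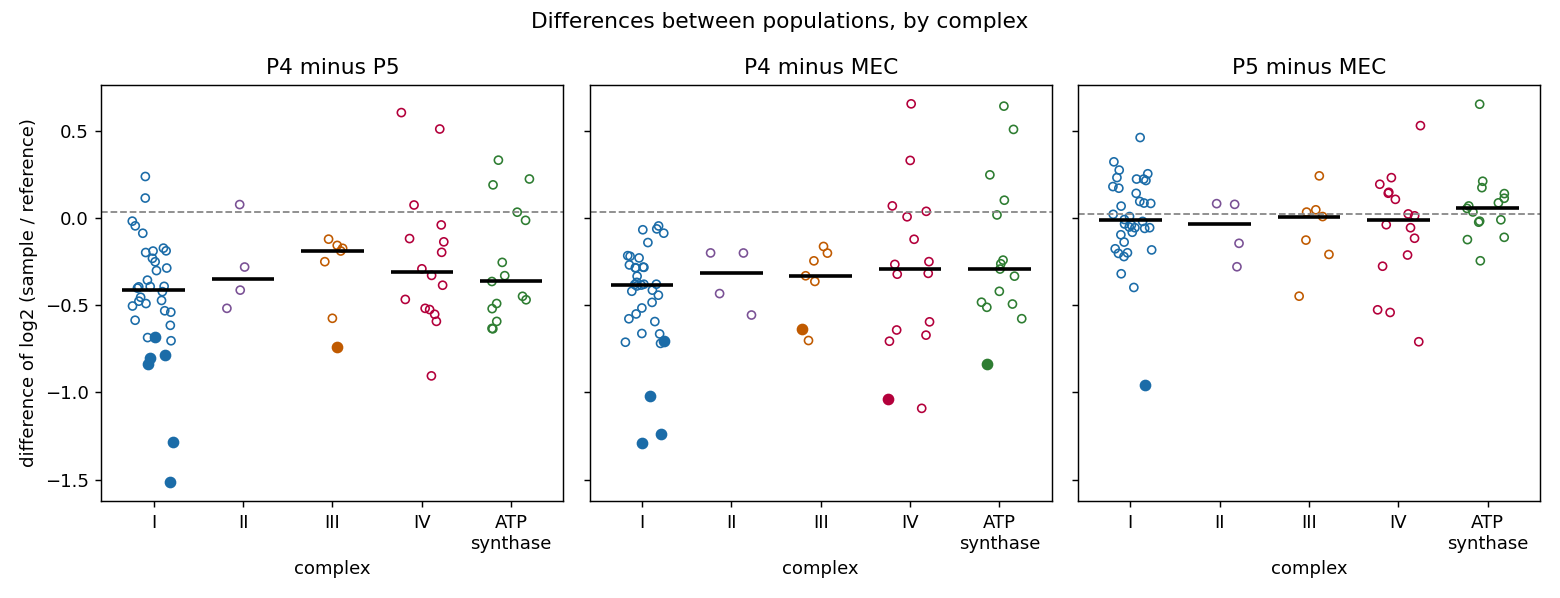
Difference of log2 ratio (vertical axis) for each gene, by complex (horizontal axis), in P4 minus P5, P4 minus MEC and P5 minus MEC. Filled points have an adjusted p under 0.05, black lines are the medians of a complex and the dashed line is the median of all tested genes, and in the panels against MEC the complex I genes lie below that line in P4 but around it in P5.

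The 2 lowest P4 minus P5 differences were those of complex I genes. Ndufa7, an accessory subunit of the matrix arm, was at -0.35 (het) and -0.76 (WT) in P4, against 0.94 (het) and 0.99 (WT) in P5 and 0.84 (het) and 0.54 (WT) in MEC. Both P4 arrays lay below the other 4, and the P4 minus P5 difference was -1.52 ± 0.16 (SE, adjusted p = 0.0143). A second Ndufa7 probe gave -1.41. Ndufa6, an accessory subunit that binds the mitochondrial acyl carrier protein, was at -1.98 (het) and -2.13 (WT) in P4, against -0.81 (het) and -0.74 (WT) in P5 and -0.65 (het) and -0.88 (WT) in MEC. The difference was -1.28 ± 0.13 (SE, adjusted p = 0.0139), and again no other array reached the P4 values. Ndufc1, a small accessory subunit of the membrane arm, was at -1.09 (het) and -1.22 (WT) in P4, against -0.25 (het) and -0.38 (WT) in P5 and -0.32 (het) and -0.66 (WT) in MEC, a difference of -0.84 ± 0.12 (SE, adjusted p = 0.0261), with -0.88 on its second probe.

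Ndufs7, the core subunit that holds the last iron-sulphur centre before ubiquinone, was at -1.70 (het) and -2.16 (WT) in P4, against -1.06 (het) and -1.20 (WT) in P5 and -0.70 (het) and -1.12 (WT) in MEC. Its P4 minus P5 difference was -0.80 ± 0.13 (SE, adjusted p = 0.0351), and its lower P4 value came from the WT array. Ndufb3, an accessory membrane-arm subunit, was at -0.88 (het) and -0.92 (WT) in P4, against -0.14 (het) and -0.09 (WT) in P5 and -0.20 (het) and -0.50 (WT) in MEC, a difference of -0.78 ± 0.14 (SE, adjusted p = 0.039). Ndufs4, an accessory subunit near the NADH-oxidising end whose loss in mice gives a Leigh-like brain disease, was at 0.043 (het) and -0.19 (WT) in P4, against 0.72 (het) and 0.49 (WT) in P5 and 0.14 (het) and 0.14 (WT) in MEC. For Ndufs4 the P5 arrays stood above both other populations, and P4 minus P5 was -0.68 ± 0.12 (SE, adjusted p = 0.043).

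In complex III the called gene was Uqcr (now Uqcr11), a small membrane subunit, at -0.70 (het) and -0.88 (WT) in P4, against -0.086 (het) and -0.021 (WT) in P5 and 0.071 (het) and -0.25 (WT) in MEC. Its P4 minus P5 difference was -0.74 ± 0.14 (SE, adjusted p = 0.046). The 7 called genes came from complex I and III and lay on chromosomes 17, 15, 3, 10, 1, 10 and 13 in the order given by effect size; Ndufs7 and Uqcr share chromosome 10.

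The calls differed in how many of 17 ways of processing and fitting the arrays they held, the one used here included. These ways are not all separate. For P4 minus P5, the fits on P4 and P5 arrays only, without het MEC and without WT MEC were the same fit. The scanner software's ratios and the series table gave nearly the same values. The counts that follow thus overstate how many separate fits held a call. Ndufa7 was called in 13, Ndufa6, Ndufc1 and Ndufs7 in 12, Ndufb3 in 10, Uqcr in 9 and Ndufs4 in 8. Each lost its call without any 1 of the 4 sorted arrays, and all but Ndufa7 with median centring. Ndufs4 was lost too with a background offset of 0, the scanner software's ratios, the series table and the mean over its probes, which moved its difference to -0.34, where its second probe was well above background on 0 of 6 arrays. Of 27 further probes to 22 of the members, 20 gave the same direction of P4 minus P5 as the probe used, with a median of -0.19, against -0.25 on the probes used. Directions were opposite, for example, for Ndufb8 (-0.35, and 0.59 on a dimmer probe) and for Ndufab1 (-0.47, and 0.50 on 1 of its dimmer probes). Among the 16 brighter of the further probes, 13 gave the same direction. Opposite there were Atp5a1 (0.19, and -0.07) and both other probes of Atp5b (0.23, and -0.07 and -0.11). In het minus WT, 15 of the 27 went the same way, and their median of -0.045 had the opposite sign to the 0.11 of the probes used.

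**Figure D3:**
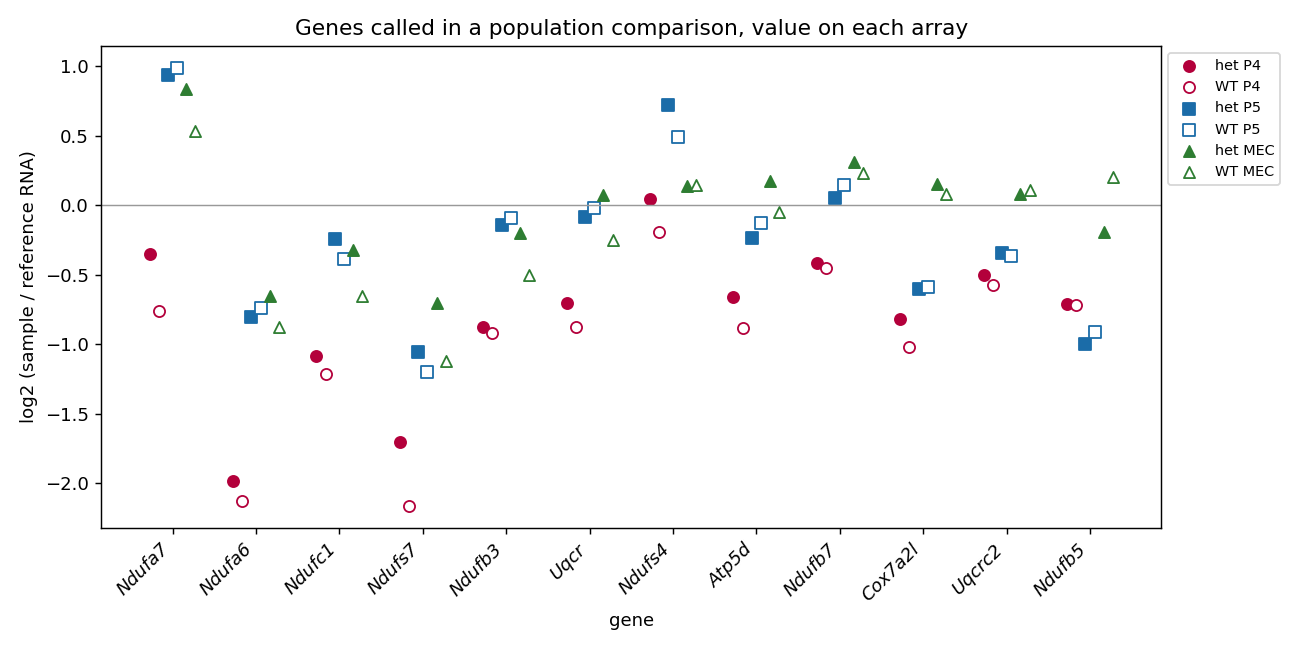
Log2 of sample over reference RNA (vertical axis) on each array for the 12 genes called in at least 1 population comparison (horizontal axis), ordered by P4 minus P5. Filled symbols are het, open symbols WT, circles P4, squares P5 and triangles MEC. In every gene shown but Ndufb5 both circles lie below every square and triangle.

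Stretches before the annotated start are shown for the genes with the 2 lowest differences (Ndufa7 and Ndufa6), for the called complex III gene Uqcr and for Ndufs5, not called, to set stretches with and without a motif match side by side, since nuclear respiratory genes are known to carry sites for the factors NRF1, GABP and YY1. They are the 120 bases before the start, from RefSeq on build GRCm38.p6, at chr17:33824452-33824571 (plus strand), chr15:82354292-82354411 (minus strand), chr10:80406822-80406941 (minus strand) and chr4:123718187-123718306 (minus strand). Capitals mark a match to a searched motif.
Ndufa7: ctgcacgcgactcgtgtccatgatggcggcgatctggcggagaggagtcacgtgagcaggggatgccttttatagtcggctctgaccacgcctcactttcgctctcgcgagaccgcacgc
Ndufa6: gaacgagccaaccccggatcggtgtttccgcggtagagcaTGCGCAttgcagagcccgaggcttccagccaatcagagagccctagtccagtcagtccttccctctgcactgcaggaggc
Uqcr: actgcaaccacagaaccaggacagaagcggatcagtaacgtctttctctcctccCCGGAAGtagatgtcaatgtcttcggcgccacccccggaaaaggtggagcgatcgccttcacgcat
Ndufs5: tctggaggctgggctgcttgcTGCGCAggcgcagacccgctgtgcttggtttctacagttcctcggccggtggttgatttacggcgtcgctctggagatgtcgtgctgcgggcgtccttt

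The motifs searched were TGCGCA (the NRF1 half-site), CCGGAAG (GABP) and AAGATGGCG (YY1), on both strands, in windows of 250 bases before to 50 after the start. Windows were found for 67 of the 82 genes. NRF1 letters were in 18 of 67 (26.9%), against 8.06% of 27025 windows of all genes. GABP letters were in 16 of 67 (23.9%), against 9.12%, and YY1 letters in 6 of 67 (8.96%), against 1.49%. No matches of different motifs overlapped. The 34 genes with any match had a median P4 minus P5 difference of -0.39 and the 33 without had -0.45. A match describes the letters in a window and not a bound site.

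The genes that stood highest in P4 against P5 were not called. Cox6a2, the heart and muscle isoform of a complex IV subunit, was at -2.39 (het) and -2.54 (WT) in P4, against -2.96 (het) and -3.19 (WT) in P5 and -2.86 (het) and -2.74 (WT) in MEC, a difference of 0.61 ± 0.14 (SE, adjusted p = 0.0643). Cox6c, another complex IV subunit, was at 0.36 (het) and 0.17 (WT) in P4, against -0.12 (het) and -0.37 (WT) in P5 and -0.42 (het) and -0.36 (WT) in MEC, a difference of 0.51 ± 0.13 (SE, adjusted p = 0.0864). Both P4 arrays were above the other 4 for these genes. Atp5g3, 1 of the 3 genes for the ATP synthase c-ring protein, was at 1.06 (het) and 0.84 (WT) in P4, against 0.85 (het) and 0.38 (WT) in P5 and 0.48 (het) and 0.41 (WT) in MEC, a difference of 0.33 ± 0.14 (SE, adjusted p = 0.241). For Atp5g3 the het P5 array reached the WT P4 value. Cox4nb was at -0.77 (het) and -0.73 (WT) in P4, against -1.02 (het) and -0.97 (WT) in P5 and -0.74 (het) and -0.57 (WT) in MEC, a difference of 0.25 ± 0.11 (SE, adjusted p = 0.26), and Ndufb5, an accessory membrane-arm subunit, at -0.71 (het) and -0.72 (WT) in P4, against -0.996 (het) and -0.91 (WT) in P5 and -0.19 (het) and 0.20 (WT) in MEC, a difference of 0.24 ± 0.15 (SE, adjusted p = 0.405).

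Most respiratory chain genes also lay lower in P4 than in MEC, and these values share the P4 arrays with the comparison above. The median P4 minus MEC difference was -0.36 over the 81 genes, with 71 below 0, against a median of 0.037 over all genes; with median centring in place of loess it was -1.71. In 58 of 81 both P4 arrays were lower than both MEC arrays, against 23.4% of all genes, and in 5 both were higher, against 22.7%. By the test 7 were lower and 0 higher, while 7.05% of all genes passed, 2.82% higher and 4.23% lower. Of the 1020 bright genes 94 were called lower (9.22%) and 88 higher, with a median difference of -0.040. At an unadjusted p under 0.05, 44 of 81 passed, against 26.2% of all genes. Without any of the 4 sorted arrays 0 were called, without het MEC 2, and without WT MEC 16 (14 lower, 2 higher). The same fits called 0 of all genes without any sorted array, 5.13% (3.3% lower) without het MEC and 16.8% (7.68% lower) without WT MEC. All 36 genes placed in complex I by name, Ndufa4 (-0.043) included, were below 0, with a median of -0.38.

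Ndufa6, Ndufa7 and Ndufs7 were lower in P4 than in MEC as well, by -1.29 ± 0.13 (SE, adjusted p = 0.0251), -1.24 ± 0.16 (SE, adjusted p = 0.0305) and -1.02 ± 0.13 (SE, adjusted p = 0.0328). Ndufb7, an accessory membrane-arm subunit of complex I, was at -0.42 (het) and -0.45 (WT) in P4, against 0.05 (het) and 0.14 (WT) in P5 and 0.31 (het) and 0.23 (WT) in MEC, a P4 minus MEC difference of -0.71 ± 0.11 (SE, adjusted p = 0.0433). Uqcrc2, a core protein of complex III, was at -0.51 (het) and -0.58 (WT) in P4, against -0.34 (het) and -0.36 (WT) in P5 and 0.078 (het) and 0.11 (WT) in MEC, a difference of -0.63 ± 0.11 (SE, adjusted p = 0.047). For both, P5 lay between P4 and MEC.

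Cox7a2l, known as a factor in joining complexes III and IV into supercomplexes, was at -0.82 (het) and -1.02 (WT) in P4, against -0.60 (het) and -0.59 (WT) in P5 and 0.15 (het) and 0.079 (WT) in MEC. Its P4 minus MEC difference was -1.04 ± 0.12 (SE, adjusted p = 0.0283), and P5 lay between. Atp5d, the delta subunit in the central stalk of the catalytic F1 part of ATP synthase, was at -0.66 (het) and -0.89 (WT) in P4, against -0.24 (het) and -0.13 (WT) in P5 and 0.18 (het) and -0.05 (WT) in MEC, a difference of -0.84 ± 0.14 (SE, adjusted p = 0.0458). Cox7c, a small complex IV subunit, was at -1.88 (het) and -2.08 (WT) in P4, against -1.37 (het) and -1.48 (WT) in P5 and -0.34 (het) and -1.43 (WT) in MEC. Its difference of -1.09 ± 0.28 (SE, adjusted p = 0.0961) was among the 5 lowest but did not pass, and the het MEC array stood apart from the other 5. Of 16 settings, Ndufa6 and Cox7a2l were called lower in P4 than in MEC in 12, Ndufa7 and Ndufs7 in 11, Atp5d and Ndufb7 in 10 and Uqcrc2 in 6. With the Cy5 channel alone the differences were -0.63 for Cox7a2l and -0.21 for Uqcrc2, the last not called, and Uqcrc2 was lost as well with a background offset of 0, the scanner software's ratios, the series table or any 1 array left out.

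Highest in P4 against MEC were Cox6c at 0.66 ± 0.13 (SE, adjusted p = 0.0626) and Atp5e, the epsilon subunit of F1, at 0.64 ± 0.14 (SE, adjusted p = 0.0682), with Atp5g3 at 0.51 ± 0.14 (SE, adjusted p = 0.115) next and none called. Atp5e was at 0.67 (het) and 0.50 (WT) in P4, against 0.58 (het) and 0.61 (WT) in P5 and -0.16 (het) and 0.039 (WT) in MEC, so both sorted populations stood above MEC. Cox6a2 gave 0.33 ± 0.14 (SE, adjusted p = 0.215). Atp5a1, the alpha subunit of F1, was at 0.11 (het) and -0.061 (WT) in P4, against -0.022 (het) and -0.31 (WT) in P5 and -0.15 (het) and -0.30 (WT) in MEC, a difference of 0.25 ± 0.11 (SE, adjusted p = 0.251). A second Atp5a1 probe gave -0.36, and the mean over both probes gave -0.054.

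The median P5 minus MEC difference was -0.0063, against 0.025 over all genes, with 41 genes below 0 and 40 above, although median centring in place of loess moved it to -1.33. Both P5 arrays were below both MEC arrays in 17 genes and above them in 17, or 21% each, against 23.9% and 24.9% of all genes. Of the 81, 1 was lower and 0 higher by the test, while 4.17% of all genes passed, 1.01% higher and 3.16% lower. At an unadjusted p under 0.05, 9 of 81 passed, against 22.5% of all genes. The called gene was Ndufb5, with a difference of -0.96 ± 0.15 (SE, adjusted p = 0.0472). It was called in 7 of 16 settings, this fit included. The call was lost without any 1 sorted array or WT MEC, with the scanner software's ratios or the series table, with dim genes kept in the adjustment, and with the Cy5 channel alone, which gave -0.54.

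The other genes at the low end in P5 against MEC were Cox7a2l at -0.71 ± 0.12 (SE, adjusted p = 0.0552), Cox7c at -0.54 ± 0.28 (SE, adjusted p = 0.34), Cox8b at -0.53 ± 0.12 (SE, adjusted p = 0.0907) and Uqcrc2 at -0.45 ± 0.11 (SE, adjusted p = 0.106). At the high end were Atp5e at 0.66 ± 0.14 (SE, adjusted p = 0.0814), Cox7a2 at 0.53 ± 0.12 (SE, adjusted p = 0.089), Ndufs4 at 0.46 ± 0.12 (SE, adjusted p = 0.128), Ndufs5 at 0.32 ± 0.16 (SE, adjusted p = 0.32) and Ndufa7 at 0.28 ± 0.16 (SE, adjusted p = 0.377). None of these was called. Ndufs5, an accessory subunit of complex I, was at -0.22 (het) and -0.47 (WT) in P4, against 0.34 (het) and 0.37 (WT) in P5 and 0.26 (het) and -0.20 (WT) in MEC, so both P4 arrays were below the other 4.

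Complex II has 4 genes, and none was called in any comparison. Sdha, the flavoprotein that oxidises succinate, was at -0.51 (het) and -0.43 (WT) in P4, against -0.06 (het) and 0.15 (WT) in P5 and -0.0094 (het) and -0.067 (WT) in MEC, a P4 minus P5 difference of -0.52 ± 0.12 (SE, adjusted p = 0.0745), with -0.87 on a second probe. Sdhb, the iron-sulphur subunit, was at -0.94 (het) and -1.03 (WT) in P4, against -0.99 (het) and -1.14 (WT) in P5 and -0.87 (het) and -0.70 (WT) in MEC, and P4 and P5 overlapped. Sdhc and Sdhd anchor the complex in the membrane. Sdhc was at -0.69 (het) and -0.78 (WT) in P4, against -0.50 (het) and -0.41 (WT) in P5 and -0.43 (het) and -0.64 (WT) in MEC, and Sdhd at -1.31 (het) and -1.59 (WT) in P4, against -0.95 (het) and -1.12 (WT) in P5 and -0.998 (het) and -0.79 (WT) in MEC, both with each P4 array below each P5 array.

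None of the complex IV isoforms was called in P4 minus P5. Cox4i1, the common isoform of its subunit, was at -0.56 (het) and -0.73 (WT) in P4, against -0.10 (het) and -0.25 (WT) in P5 and -0.16 (het) and -0.50 (WT) in MEC, a P4 minus P5 difference of -0.47 ± 0.12 (SE, adjusted p = 0.0824). Cox4i2, the isoform known from lung, was at 0.16 (het) and 0.018 (WT) in P4, against 0.086 (het) and -0.06 (WT) in P5 and 0.062 (het) and 0.035 (WT) in MEC, with a difference of 0.077 ± 0.11 (SE, adjusted p = 0.759). Cox4i2 was dim, with raw Cy5 of 82.5 (het) and 79.9 (WT) in P4 and 73.0 (het) and 91.3 (WT) in P5. The MEC arrays gave 113.0 (het) and 116.2 (WT), and median local backgrounds were 34.5 to 36. Its flat ratio is thus that of a weak signal. Cox6a1, the counterpart of Cox6a2 outside heart and muscle, was at 0.49 (het) and 0.24 (WT) in P4, against 0.47 (het) and 0.53 (WT) in P5 and 0.47 (het) and 0.50 (WT) in MEC, a difference of -0.13 ± 0.13 (SE, adjusted p = 0.634).

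Cox6b1, the common isoform, was at -1.12 (het) and -0.90 (WT) in P4, against -0.56 (het) and -0.28 (WT) in P5 and -0.16 (het) and -0.45 (WT) in MEC, and the testis isoform Cox6b2 at 0.61 (het) and 0.15 (WT) in P4, against 0.52 (het) and 0.31 (WT) in P5 and 0.29 (het) and 0.32 (WT) in MEC. Their P4 minus P5 differences were -0.59 ± 0.18 (SE, adjusted p = 0.124) and -0.038 ± 0.16 (SE, adjusted p = 0.924). Cox7a1, the heart and muscle isoform, was at -1.30 (het) and -1.48 (WT) in P4, against 0.022 (het) and -0.99 (WT) in P5 and -0.61 (het) and -0.83 (WT) in MEC. The het P5 array stood apart, and the difference of -0.90 ± 0.24 (SE, adjusted p = 0.0958) did not pass. Cox7a2, the common isoform, was at -0.51 (het) and -0.88 (WT) in P4, against -0.053 (het) and -0.29 (WT) in P5 and -0.49 (het) and -0.92 (WT) in MEC, a difference of -0.52 ± 0.12 (SE, adjusted p = 0.0642), with P4 and MEC overlapping below P5. Cox7b, a further subunit, was at -0.19 (het) and -0.14 (WT) in P4, against 0.29 (het) and 0.42 (WT) in P5 and 0.053 (het) and 0.26 (WT) in MEC, and both P4 arrays were lowest.

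Cox8a, the common isoform, was at -0.24 (het) and -0.39 (WT) in P4, against -0.049 (het) and 0.0058 (WT) in P5 and 0.18 (het) and -0.27 (WT) in MEC, a difference of -0.29 ± 0.16 (SE, adjusted p = 0.359). Cox8b, the heart and muscle isoform in mice, was at 0.20 (het) and 0.043 (WT) in P4, against 0.31 (het) and 0.17 (WT) in P5 and 0.92 (het) and 0.60 (WT) in MEC. Its raw Cy5 signal was 72.7 (het) and 78.6 (WT) in P4, against 72.3 (het) and 80.1 (WT) in P5 and 199.9 (het) and 272.2 (WT) in MEC, and P4 minus MEC was -0.64 ± 0.12 (SE, adjusted p = 0.0512). Beside this, the summed Cy5 signal of 11 adipocyte markers was 16992 (het) and 14438 (WT) in P4 and 12685 (het) and 9853 (WT) in P5, against 204070 (het) and 307670 (WT) in MEC. By the test 5 of these 11 were lower in P4 than in MEC, namely Cfd, Lpl, Pparg, Cidec and Cidea. By the same test fibroblast markers (6 of 11) and endothelial markers (9 of 11) were lower in P4 as well, against 4.23% of all genes. The part of other cell types in the MEC values was not tested.

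Of the other isoform sets, Atp5g1, a c-ring gene, was at -0.33 (het) and -0.35 (WT) in P4, against -0.40 (het) and -0.36 (WT) in P5 and -0.62 (het) and -0.10 (WT) in MEC, and Atp5g2 at -0.74 (het) and -0.98 (WT) in P4, against -0.45 (het) and -0.62 (WT) in P5 and -0.56 (het) and -0.69 (WT) in MEC. Their P4 minus P5 differences were 0.036 ± 0.17 (SE, adjusted p = 0.937) and -0.33 ± 0.11 (SE, adjusted p = 0.147). Ndufa4, named as a complex I gene but since assigned to complex IV, was at 0.21 (het) and 0.15 (WT) in P4, against 0.37 (het) and 0.59 (WT) in P5 and 0.20 (het) and 0.25 (WT) in MEC, a difference of -0.30 ± 0.12 (SE, adjusted p = 0.228). Cox8c, the testis isoform, was at -0.09 (het) and 0.072 (WT) in P4, against -0.15 (het) and -0.0006 (WT) in P5 and -0.052 (het) and -0.013 (WT) in MEC, and was too dim to test.

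Among other genes that serve the chain, few were called. Cytochrome c (Cycs and its testis form Cyct), which carries electrons between complexes III and IV, and cytochrome c1 (Cyc1), a complex III subunit outside the name rule, had P4 minus P5 differences of -0.18, -0.0012 and -0.037, none called. Of 16 assembly factors outside the name rule 1 was lower, Surf1, a complex IV assembly factor, at -0.92 (het) and -1.05 (WT) in P4, against -0.19 (het) and -0.47 (WT) in P5 and -0.052 (het) and -0.48 (WT) in MEC, with a difference of -0.66 (adjusted p = 0.0469). Slc25a4, the ADP/ATP carrier of heart and muscle, was higher in P4 than in P5 at 0.057 (het) and 0.095 (WT) in P4, against -1.16 (het) and -1.54 (WT) in P5 and -0.97 (het) and -0.56 (WT) in MEC, by 1.43 (adjusted p = 0.0287). It was the only one called of 6 carriers and related genes.

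Mitochondrial ribosomal protein genes, which serve translation of the mitochondrially encoded subunits, were lower for 13 of 75 and higher for 0, with a median of -0.22. Mrpl14 at -1.49, Mrpl40 at -1.14, Mrps33 at -1.13 and Mrps10 at -1.0 were the lowest called. Fatty acid oxidation genes, which feed electrons into the chain, were lower for 6 of 13 and higher for 0, with a median of -0.66. Among them were Cpt2 (-1.44, adjusted p = 0.0218) and Cpt1a (-1.14, adjusted p = 0.0392), which import fatty acids, Acadl (-1.38, adjusted p = 0.0123), a long-chain dehydrogenase, and Etfb (-1.13, adjusted p = 0.0283), an electron carrier. Of 16 tricarboxylic acid cycle genes 1 was lower, fumarase (Fh1), by -0.85 (adjusted p = 0.0258), with a list median of -0.16.

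Glycolysis and lactate genes went both ways, with 4 of 20 higher and 1 lower and a median of 0.34. The higher ones were the lactate transporter Slc16a1 at 2.56 (adjusted p = 0.00867), Pdk4, which inhibits pyruvate dehydrogenase, at 1.52 (adjusted p = 0.0386), Pfkp at 1.30 (adjusted p = 0.0123) and Ldha at 1.06 (adjusted p = 0.0274). Aldoc was lower, by -2.36 (adjusted p = 0.0316). Among 16 regulators of mitochondrial biogenesis 1 was higher, the PGC-1-related coactivator Pprc1, by 1.01 (adjusted p = 0.043), and Ppargc1a, Nrf1 and Esrra gave 0.34, -0.042 and -0.51, not called. Of 14 hypoxia-responsive genes 2 were higher, P4ha1 by 1.37 and Egln1 by 0.65. Over all genes 5.57% were called lower and 5.05% higher.

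**Figure D4:**
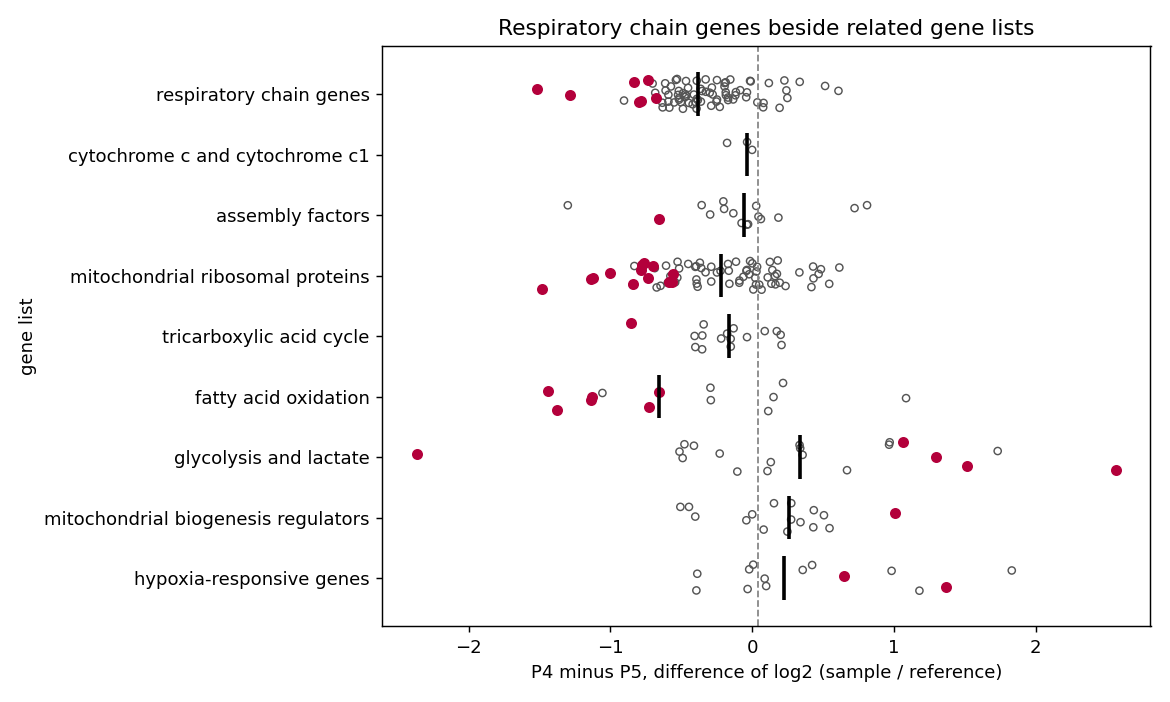
P4 minus P5 difference of log2 ratio (horizontal axis) for each gene of the respiratory chain and of 8 related lists (vertical axis). Filled points have an adjusted p under 0.05, black bars are list medians and the dashed line is the median of all genes; the medians run from -0.66 for fatty acid oxidation to 0.34 for glycolysis and lactate, with respiratory chain genes at -0.38.

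Between arrays labelled het and WT, averaged over the 3 populations, 0 of the 81 respiratory chain genes and 0 of all 25062 genes (0%) passed the adjusted test. At an unadjusted p under 0.05, 3 of 81 passed, against 20.9% of all genes. The median het minus WT difference was 0.10, with 64 of 81 above 0, against a median of 0.067 and 62.1% above 0 over all genes. The lowest adjusted p among the 81 was 0.206. With median centring in place of loess, however, the member median turned to -0.999 and 71 members were called lower. In that fit 7151 of all 25062 genes and 76.7% of the 1020 bright genes were called lower too.

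The highest mean differences were those of Cox7a1 at 0.48 ± 0.20 (SE, adjusted p = 0.269), Cox7c at 0.47 ± 0.23 (SE, adjusted p = 0.311), Cox7a2 at 0.35 ± 0.095 (SE, adjusted p = 0.206), Ndufs7 at 0.34 ± 0.11 (SE, adjusted p = 0.211) and Ndufb11, an accessory membrane-arm subunit of complex I, at 0.29 ± 0.092 (SE, adjusted p = 0.211). Cox7a2 gave 0.38 (P4), 0.24 (P5) and 0.44 (MEC), so all 3 populations went the same way. Ndufs7 gave 0.46 (P4), 0.14 (P5) and 0.42 (MEC). Ndufb11 was at 0.12 (het) and -0.10 (WT) in P4, against 0.64 (het) and 0.38 (WT) in P5 and 0.49 (het) and 0.10 (WT) in MEC, higher on each het array than on its WT counterpart. The Cox7a1 and Cox7c values each rested on 1 array pair: het minus WT was 0.19 (P4), 1.01 (P5) and 0.23 (MEC) for Cox7a1 and 0.20 (P4), 0.11 (P5) and 1.09 (MEC) for Cox7c. These were the only 2 members with a difference of 2-fold or more within a population.

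At the low end were Ndufa10 at -0.23 ± 0.11 (SE, adjusted p = 0.304), Atp5g1 at -0.18 ± 0.14 (SE, adjusted p = 0.509), Ndufb5 at -0.16 ± 0.12 (SE, adjusted p = 0.484), Cox7b at -0.13 ± 0.092 (SE, adjusted p = 0.462) and Cox4nb at -0.086 ± 0.091 (SE, adjusted p = 0.621). Ndufa10, an accessory subunit of complex I, was at -1.60 (het) and -1.28 (WT) in P4, against -1.21 (het) and -0.89 (WT) in P5 and -0.75 (het) and -0.71 (WT) in MEC, with het below WT in all 3 populations.

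Within a population there was 1 array of each genotype and so no test. The median het minus WT difference over the 81 genes was 0.16 within P4, against 0.11 over all genes. Within P5 it was -0.0053, against 0.069, and within MEC 0.10, against 0.042. In P4 63 of 81 were above 0, against 63.8% of all genes, in P5 40, against 60.6%, and in MEC 53, against 56.4%. In P4 0 members reached 2-fold, against 5.98% of all genes (5.85% higher, 0.124% lower). In P5 1 did, higher in het, against 3.09% of all genes (2.53% higher, 0.559% lower). In MEC 1 did, also higher in het, against 2.73% (2.03% higher, 0.702% lower). The signs of these medians depended on the processing. With median centring in place of loess they were -1.45 (P4), -0.85 (P5) and -0.71 (MEC), with the scanner software's ratios 0.0074, 0.054 and 0.051 in the same order, and with the Cy5 channel alone -0.040, 0.022 and -0.0015.

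**Figure D5:**
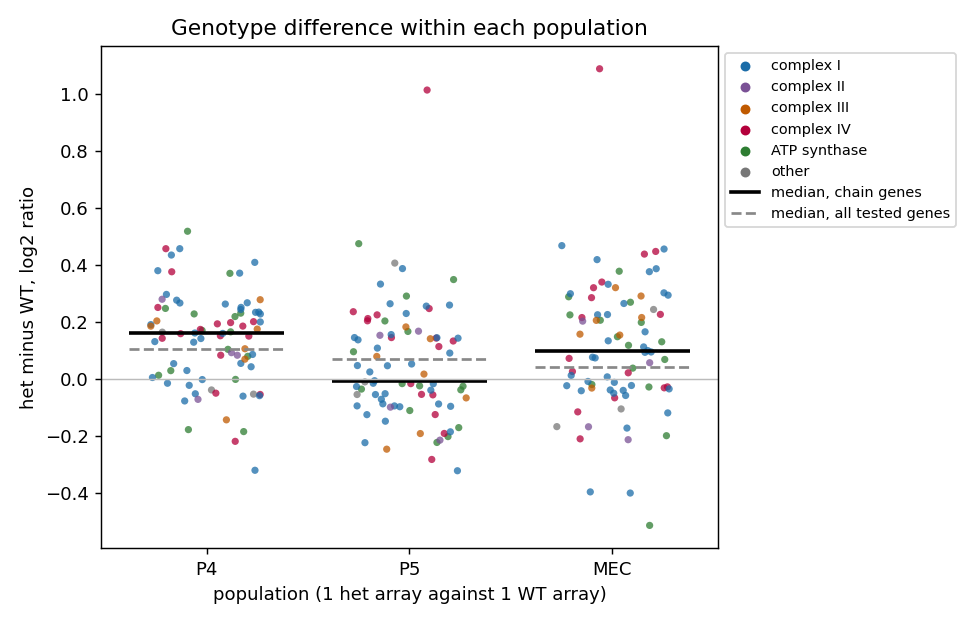
Het minus WT difference of log2 ratio (vertical axis) for the 81 genes in P4, P5 and MEC (horizontal axis), 1 array against 1 in each. Black lines are the medians of the 81 genes (0.16 for P4, -0.0053 for P5 and 0.10 for MEC) and dashed lines those of all tested genes; 1 gene in P5 and 1 in MEC lies at or above 1. With median centring in place of loess all 3 medians were below 0 (-1.45, -0.85 and -0.71).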

How the data were processed

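The data were 6 arrays, 1 per group. Per the file headers, the authors extracted spots with version 9.5.3.1 of Agilent Feature Extraction. Deposited values per spot are raw intensity (mean signal, median local background). The same deposited files carry a log10 ratio, red over green, as corrected by that software. The deposited series table holds log2 ratios, and its columns ran the same way as the scanner ratios, sample over reference.

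Mean signals and median backgrounds were corrected with normexp (offset 50) and normalised by loess within each array with limma 3.58.1 (R 4.3.3; files were read with data.table version 1.17.8 and jsonlite 2.0.0). Control spots and spots marked as outliers had no weight, and outlier spots, 74 to 236 per array, were left out. Spots of the same probe were averaged, and a gene was read from its brightest probe. Genes were kept if Cy5 was well above background on 2 or more arrays. The fit had population and genotype as terms over all 6 arrays, which leaves 2 residual degrees of freedom, and p-values were adjusted by Benjamini-Hochberg over 25062 genes with a threshold of 0.05. With 1 array per group, populations are replicated only over genotypes.

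Sequences came from RefSeq, build GRCm38.p6. The fit was tested on simulated data for P4 minus P5 over 24889 genes: 2% of genes shifted by -0.5, 54% by -1, 96% by -2 and 100% by 2 (50 each, log2) were called, with 13 unshifted genes called, where the simulated spread was the fit's own moderated one (median 0.141). This spread was taken up after a first simulation, with the spread between the 2 arrays of P4 and of P5 (median 0.178, genotype difference included), had returned the same shifts but called 0% of genes at each of them. The members, gene lists and named genes were chosen with earlier results of these data known. Named were the 5 highest and 5 lowest members of each comparison, all called members, the Sdh genes, isoform sets and, per related list, up to 4 genes with the largest difference among those called. Where the text adds uncalled genes (Ppargc1a, Nrf1 and Esrra), they were added after their values were seen. Also chosen after values were seen were the counts of genes whose arrays do not overlap, the comparison with bright genes, the stretches printed and the NRF1 motif, a half-site that took the place of a longer 10-base motif searched first. Alternatives were other background, normalisation, filter and probe choices and each array left out.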

Additional observations from a re-analysis of the deposited data

Results flagged for a closer look

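The median het minus WT difference of the 81 respiratory chain genes was 0.16 in P4 and -0.0053 in P5, so the 2 populations had opposite signs. It was 0.10 in MEC, again opposite to the -0.0053 in P5. Each value rests on 1 het array against 1 WT array, the difference between populations was not tested, and the all-gene medians were 0.11 in P4, 0.069 in P5 and 0.042 in MEC. With the scanner software's own log ratios the P4 median was 0.0074 and the P5 median 0.054. With median centring in place of loess the medians were -1.45 in P4, -0.85 in P5 and -0.71 in MEC, so the signs were no longer opposite.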

How the results depend on the processing

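The fit used holds genotype as a term and so compares populations within genotype. With 1 array per group there were no replicate numbers to pair further. The median P4 minus P5 difference of the 81 genes was below 0 under every setting run, between -0.47 and -0.29. The number of members called was 7 in P4 minus P5, and it was 1 with median centring in place of loess, 30 with the Cy5 channel alone and 18 with P4 and P5 arrays only; leaving out each array gave 0 to 18. In P4 minus MEC, 7 became 17 with outlying backgrounds replaced, 77 with median centring, 12 with the scanner software's ratios or the series table, 34 with Cy5 alone, and 0 to 16 leaving out each array. In P5 minus MEC, 1 became 2 with backgrounds replaced or the mean over probes, 77 with median centring, 3 with Cy5 alone, 0 with dim genes kept, and 0 to 1 leaving out each array. In het minus WT, 0 were called in every setting but median centring, with 71, all lower; leaving out each array gave 0 to 0.

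Over all 25062 genes, calls in P4 minus P5 numbered 2660 (1265 higher, 1395 lower) by the fit used and 905 with median centring. They numbered 3875 (1681 higher, 2194 lower) with the Cy5 channel alone and 4710 with P4 and P5 arrays only. In P4 minus MEC they were 1767 (707 higher, 1060 lower), against 4502 (2376 higher, 2126 lower) with backgrounds replaced, 7083 (338 higher, 6745 lower) with median centring, 4380 with scanner ratios, 4379 with the series table, 5014 with Cy5 alone, and 1157 with the mean over probes. In P5 minus MEC they were 1044 (252 higher, 792 lower), against 8304 (451 higher, 7853 lower) with median centring, 1604 (527 higher, 1077 lower) with backgrounds replaced, 1685 with offset 0, 1663 with scanner ratios, 1662 with the series table and 1753 with Cy5 alone. In het minus WT they were 0, against 472 with offset 0, 7845 with median centring and 835 with P4 and P5 arrays only.

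Median centring does not remove a trend of the ratio with signal. It moved the median of all genes to -0.22 in P4 minus MEC, -0.34 in P5 minus MEC and -0.21 in het minus WT. The 1020 bright genes moved to -1.49, -1.31 and -1.06 in the same comparisons, and the 81 members to -1.71, -1.33 and -0.999, but to -0.39 in P4 minus P5. Of the bright genes 77.1%, 77.9% and 76.7% were then called lower in P4 minus MEC, P5 minus MEC and het minus WT. Median centring gave het minus WT medians of the members of -1.45 in P4, -0.85 in P5 and -0.71 in MEC. The P4 median was 0.0074 with scanner ratios or the series table and -0.040 with Cy5 alone; the cause was not tested.

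Signs turned under median centring in P4 minus MEC for Atp5a1 (-1.23), Cox6a2 (-0.76), Atp5g3 (-1.03), Atp5e (-0.82) and Cox6c (-0.85). They turned in P5 minus MEC for Ndufa7 (-1.11), Ndufs5 (-1.07), Ndufs4 (-0.89), Cox7a2 (-0.87) and Atp5e (-0.72). In het minus WT they turned for Ndufb11 (-0.87), Ndufs7 (-0.77), Cox7a2 (-0.79), Cox7c (-0.65) and Cox7a1 (-0.40). With Cy5 alone, signs turned for Cox4nb in P4 minus P5 (-0.0076), Atp5a1 in P4 minus MEC (-0.018), and Uqcrc2 (0.12) and Cox7a2 (-0.23) in P5 minus MEC. With the mean over probes, Atp5a1 in P4 minus MEC turned (-0.054).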
